A study of Homo sapiens with 2 samples.

Results

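The proteasome genes were followed in TWIST-1-transduced and vector-transduced U937 cells. Members were taken by gene symbol, as the array entries annotated with 1 symbol that begins with PSMA, PSMB, PSMC, PSMD, PSME, PSMF or PSMG and a digit, leaving out antisense and pseudogene symbols, with the brightest entry kept for each gene. This gave 47 genes of the 22465 measured, from 61 array entries, and 45 of the 47 are subunits, assembly factors or regulators of the proteasome. The other 2, PSMC3IP and PSME3IP1, match by symbol but encode proteins named for binding a proteasome protein. The subunit genes PSMC5, PSMD7 and PSMD13 were not analysed here.

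U937 is a human leukemia cell line with monocytic features, which the labels give as acute myeloid leukemia. The TWIST-1-transduced cells carried a TWIST-1 cDNA introduced with a pCDH1-based lentiviral vector, and the control cells carried the empty vector. Both were sorted for green fluorescent protein (GFP), and each was measured on 1 Affymetrix Human Transcriptome Array 2.0. The sources used here do not give the promoter that drives the TWIST-1 cDNA or the number of transduced clones. With 1 array per condition there was no replicate error and no p-value, so an effect of TWIST-1 cannot be told apart from a difference between the cultures or between the arrays. The TWIST1 transcript was at 4.34 on the TWIST-1 array and 4.13 on the vector array in log2 values, a log2 ratio of 0.21. This is 1.16-fold, short of the 1.2-fold threshold used below, and rank 1288 from the highest among all genes. Both values lay under the median level of all genes, 5.19. The labels are thus checked only weakly by the array, and the TWIST1 probes were not placed on the cDNA used. Separately from the array, the paper reports checking its stably TWIST-1-expressing U937 cells by Western blot and real-time PCR. The 7 myeloid markers measured lay on both sides of 0. LYZ had log2 values of 11.4 on the TWIST-1 array and 11.6 on the vector array, a log2 ratio of -0.27 and so past the 1.2-fold threshold used below. ITGAM, CD4 and CD68 had log2 ratios of -0.18, -0.13 and -0.078, and MPO, CSF1R and SPI1 had 0.16, 0.11 and 0.047. The 7 measured markers of lymphoid, erythroid, platelet and natural killer cells had log2 ratios from -0.13 to 0.14, and the part of these differences in the results below was not tested.

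The 26S proteasome is the ATP-dependent protease that degrades proteins tagged with ubiquitin. Its 20S core is a barrel of outer alpha rings, which gate the entrance, and inner beta rings, which hold the proteolytic sites. The 19S regulatory particle caps the core, with a base of ATPases that unfolds the substrate and a lid that removes its ubiquitin. Other caps and an inducible set of beta subunits, the immunoproteasome, adapt the particle to other substrates and to antigen presentation, for which monocytic cells are known. Proteasome genes are transcribed coordinately, and the transcription factor NFE2L1, also called NRF1, is known to raise them when the proteasome is inhibited.

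The transcripts of the proteasome differed little between the arrays, and 2 of the 47 genes passed the 1.2-fold difference by which the study's methods define a change. This threshold corresponds to a log2 ratio of 0.26, where the log2 ratio subtracts the vector value from the TWIST-1 value. The study's results also name a P value criterion, which was not applied here because 1 array per condition gives none. PSME4 and PSMD1 were lower in TWIST-1-transduced cells, which is 4.26% of the members beside 2.85% of all genes. No member was at least 1.2-fold higher, beside 2.71% of all genes. In such RNA from whole cultures, fewer cells with a transcript and less transcript per cell cannot be told apart.

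PSME4 encodes PA200, a large cap of the core that opens it without ATP. Its log2 value was 7.33 on the TWIST-1 array and 7.64 on the vector array, a log2 ratio of -0.30 or 1.23-fold lower. PSMD1 encodes the largest non-ATPase subunit of the 19S base, a scaffold on which other subunits and ubiquitin receptors dock. Its log2 value was 6.36 on the TWIST-1 array and 6.63 on the vector array, a log2 ratio of -0.27. Both lay close to the threshold, and neither was past it under every setting tried. PSME4 had a log2 ratio of -0.25 after quantile normalization was repeated, and PSMD1 had -0.23 with an offset of 16 on the linear values.

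**Figure D1:**
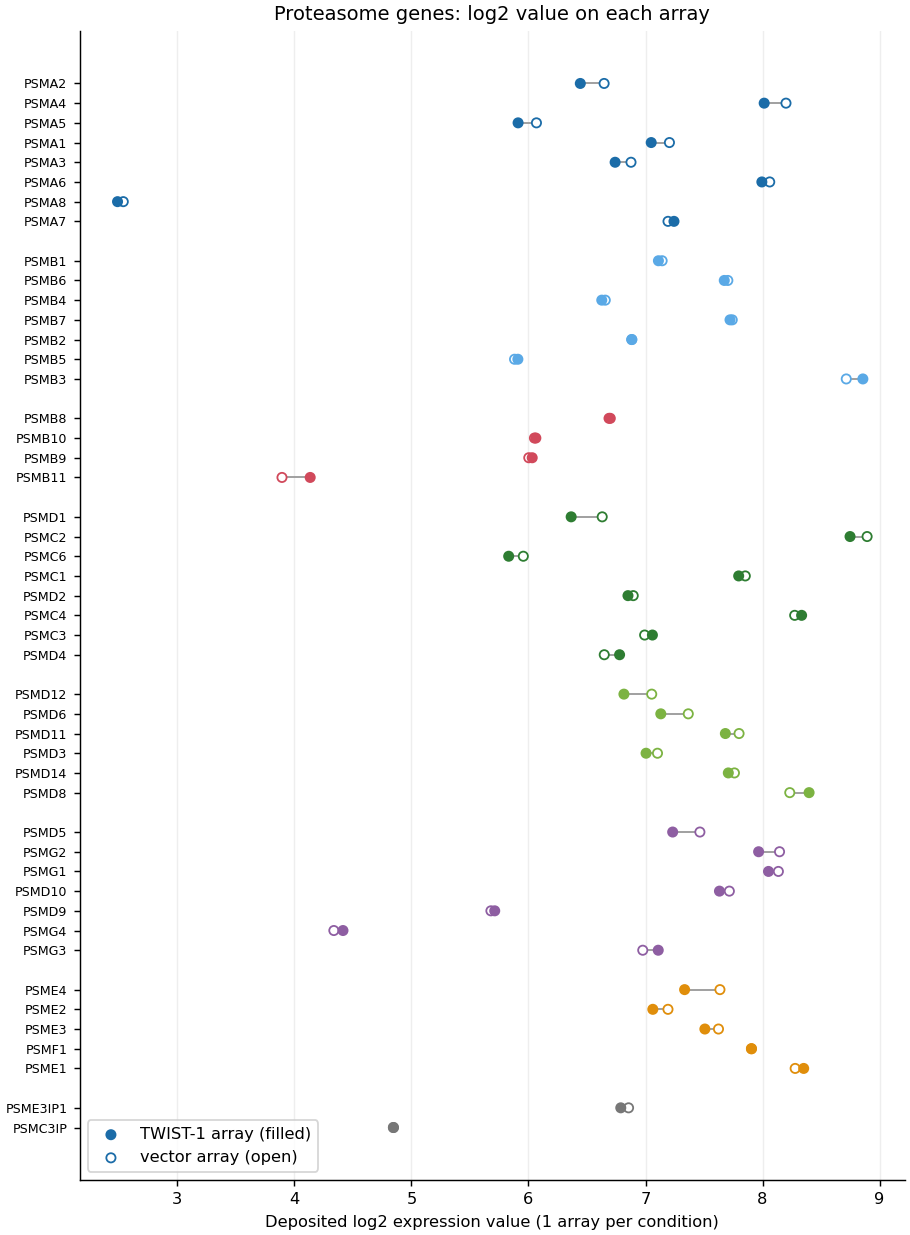
Deposited log2 value of each of the 47 proteasome genes on the TWIST-1 array (filled points) and the vector array (open points), 1 array per condition, grouped and coloured by role. The points of a gene lie close together, with the widest gap at PSME4 (7.33 on the TWIST-1 array and 7.64 on the vector array), and PSMA8 is the dimmest at 2.49 and 2.54.

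Over all 47 members, 30 had a log2 ratio below 0, 14 above 0 and 3 exactly 0, and the median was -0.049. The median of all 22465 genes was 0.042, with 34.8% of them below 0. Ratios varied with signal level on these arrays, and the members are mostly bright, with only PSMA8, PSMB11, PSMG4 and PSMC3IP below the median level of all genes. The 3277 genes whose mean log2 value lay in the middle 50% of the members' range, from 6.59 to 7.74, had a median log2 ratio of -0.027, and 56.3% of them were below 0. Of these genes, 5.89% were at least 1.2-fold lower and 1.04% at least 1.2-fold higher. The share of members past the threshold was thus near that of genes of like level. The same held at 1.1-fold, where 11 members (23.4%) were lower and 3 (6.38%) higher, beside 22.0% and 7.57% of the genes of like level and 11.8% and 17.1% of all genes. The 11 lower genes were PSMA1, PSMA2, PSMA4, PSMA5, PSMC2, PSMD1, PSMD5, PSMD6, PSMD12, PSME4 and PSMG2, and the 3 higher ones were PSMB3, PSMB11 and PSMD8.

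The 3 members listed with equal values on both arrays were PSMB2, PSMF1 and PSMC3IP, at log2 values of 6.88, 7.91 and 4.85. Equal values were found for 1177 genes, or 5.24% of all. Whether they come from the way probes were summarised was not tested.

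**Figure D2:**
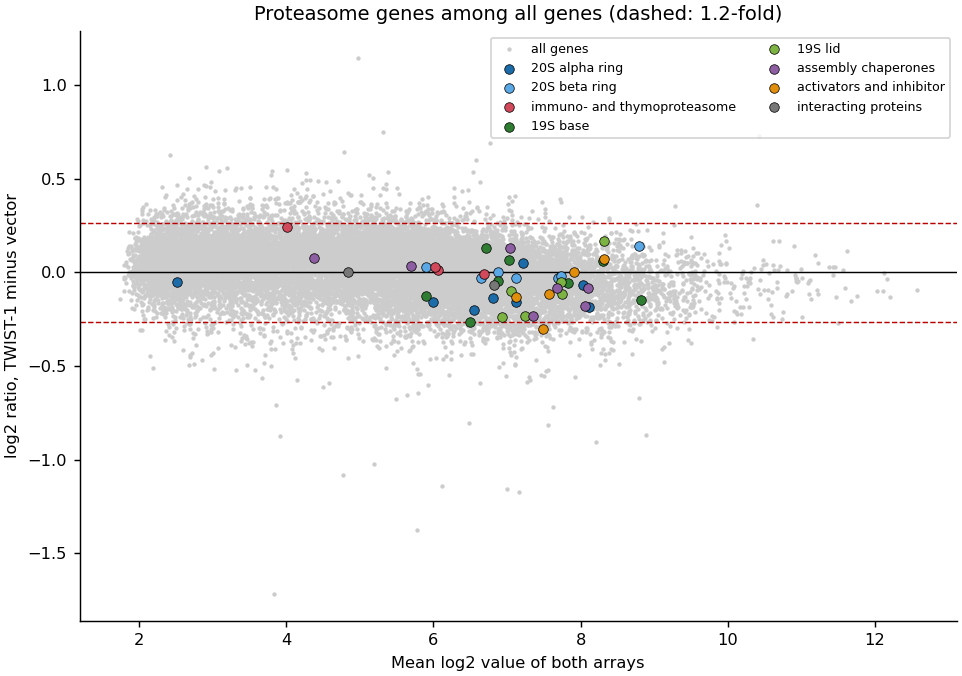
Log2 ratio (TWIST-1 minus vector) against the mean log2 value of both arrays, for all 22465 genes (grey) and the 47 proteasome genes (coloured by role), with dashed lines at 1.2-fold. The members lie inside the cloud of genes of like level, and only PSME4 and PSMD1 lie past the lower line, at -0.30 and -0.27.

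The promoters of both genes past the threshold are shown because each holds the core of the antioxidant response element, the DNA motif that NFE2L1 and NFE2L2 bind. The sequences are those of RefSeq for GRCh38.p14, from 250 bases before to 50 after the gene start and written along the gene's strand. The 9 letters searched were TGACNNNGC on both strands, and capitals mark them.
PSMD1 promoter, chr2:231056617-231056916, plus strand: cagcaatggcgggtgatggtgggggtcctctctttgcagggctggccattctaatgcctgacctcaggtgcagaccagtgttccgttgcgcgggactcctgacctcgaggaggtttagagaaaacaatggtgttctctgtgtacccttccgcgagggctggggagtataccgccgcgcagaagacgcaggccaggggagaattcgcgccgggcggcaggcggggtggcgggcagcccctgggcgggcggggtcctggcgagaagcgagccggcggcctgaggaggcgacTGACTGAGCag
PSME4 promoter, chr2:53970944-53971243, minus strand: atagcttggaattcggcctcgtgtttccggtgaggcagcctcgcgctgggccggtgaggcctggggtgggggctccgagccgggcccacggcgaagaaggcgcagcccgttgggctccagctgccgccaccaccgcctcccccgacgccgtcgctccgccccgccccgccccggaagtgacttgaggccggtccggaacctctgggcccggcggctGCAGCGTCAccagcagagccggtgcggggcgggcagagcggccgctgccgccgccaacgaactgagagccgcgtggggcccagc
In PSMD1 the match lay just after the gene start, on the gene's own strand, and in PSME4 just before it, on the opposite strand.

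Of the 41 members with a promoter in the table, 14 (34.1%) held these letters, beside 18.1% of the 15247 measured genes with a promoter and 13.3% of all 35116 promoters. A gene with several listed starts was counted as holding the motif if any of its promoters did. The 14 members with the motif had a median log2 ratio of -0.11, ranging from -0.30 to 0.14, and 9 of them were below 0. The 27 without it had a median of -0.052, ranging from -0.23 to 0.24, and 18 were below 0. The ranges overlapped over most of their length, and over all measured genes the medians were 0.037 with the motif and 0.039 without. Not shown are PSMB9, PSMD9, PSMC4 and PSME1, with the motif and above 0, and PSMG2, PSME2, PSMD3 and PSMG1, with it and below 0. Further members with the motif are shown because they had the next lowest and the highest log2 ratios. Each is given with the 10 bases on each side of the match.
PSMD12 promoter, ratio -0.24: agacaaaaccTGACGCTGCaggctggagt
PSMD5 promoter, ratio -0.23: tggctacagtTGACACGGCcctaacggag
PSMA4 promoter, ratio -0.19: gtgggcacgaTGACTCTGCaccgcctcct
PSMB3 promoter, ratio 0.14: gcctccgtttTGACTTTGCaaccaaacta
The hexamers CATATG and CAGATG, forms of the E-box that TWIST-1 and other helix-loop-helix factors bind, were searched in the same windows on both strands. CATATG was found in 0 of the 41 members, beside 2.90% of measured genes, and CAGATG in 5 (12.2%), beside 15.9%. The 5 were PSMA6, PSMB3, PSMB5, PSMB10 and PSMC3, and neither of the genes past 1.2-fold was among them. A match is a description of these letters and not evidence of binding.

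Within the 20S core, the genes of the alpha ring had lower log2 ratios than those of the beta ring. Of 8 alpha genes, 7 had a log2 ratio below 0, with a median of -0.15 and a range from -0.20 to 0.051. PSMA2 had log2 values of 6.44 on the TWIST-1 array and 6.65 on the vector array, a log2 ratio of -0.20. PSMA4 had 8.01 on the TWIST-1 array and 8.20 on the vector array, a log2 ratio of -0.19. Both encode structural subunits of the ring through which substrates enter. PSMA5, PSMA1 and PSMA3 followed with log2 ratios from -0.16 to -0.14, and PSMA6 had -0.067. The exception was PSMA7, at 7.24 on the TWIST-1 array and 7.19 on the vector array, a log2 ratio of 0.051. PSMA8, the testis alpha subunit, was among the dimmest members, at 2.49 on the TWIST-1 array and 2.54 on the vector array.

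The 7 constitutive beta genes had a median log2 ratio of -0.019 and a range from -0.032 to 0.14. Among these constitutive subunits, only PSMB5, PSMB6 and PSMB7 carry proteolytic sites. PSMB5, the chymotrypsin-like subunit and the target of bortezomib, had log2 values of 5.91 on the TWIST-1 array and 5.88 on the vector array. PSMB6, the caspase-like subunit, had 7.67 and 7.70 on the same arrays, and PSMB7, the trypsin-like subunit, 7.72 and 7.74. The log2 ratios of these catalytic genes were thus between -0.031 and 0.029. PSMB1 and PSMB4, which are not proteolytic, had log2 ratios of -0.032 and -0.030. The highest of the ring was PSMB3, a structural subunit, at 8.86 on the TWIST-1 array and 8.72 on the vector array, a log2 ratio of 0.14.

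The alpha median lay below the beta median by 0.13 on the log2 scale, and 7 of the 8 alpha genes lay below the lowest beta gene. These 7 include the dim PSMA8. Without PSMA8 the alpha median was -0.16, and 6 of 7 alpha genes were below 0. The difference between the medians was -0.13 after median centring and -0.14 both after loess normalization and after repeated quantile normalization, and 7, 6 and 6 alpha genes lay below the lowest beta gene under these scalings. Genes are not replicates, so this contrast has no test. For comparison, the log2 ratios of different array entries of a gene, which can share probes, had an SD of 0.0695 over 479 genes. Between the 3277 genes of like level, the SD of the log2 ratios was 0.14. Both SDs describe single ratios and not medians of several genes, so neither measures the spread of the difference between the medians.

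**Figure D3:**
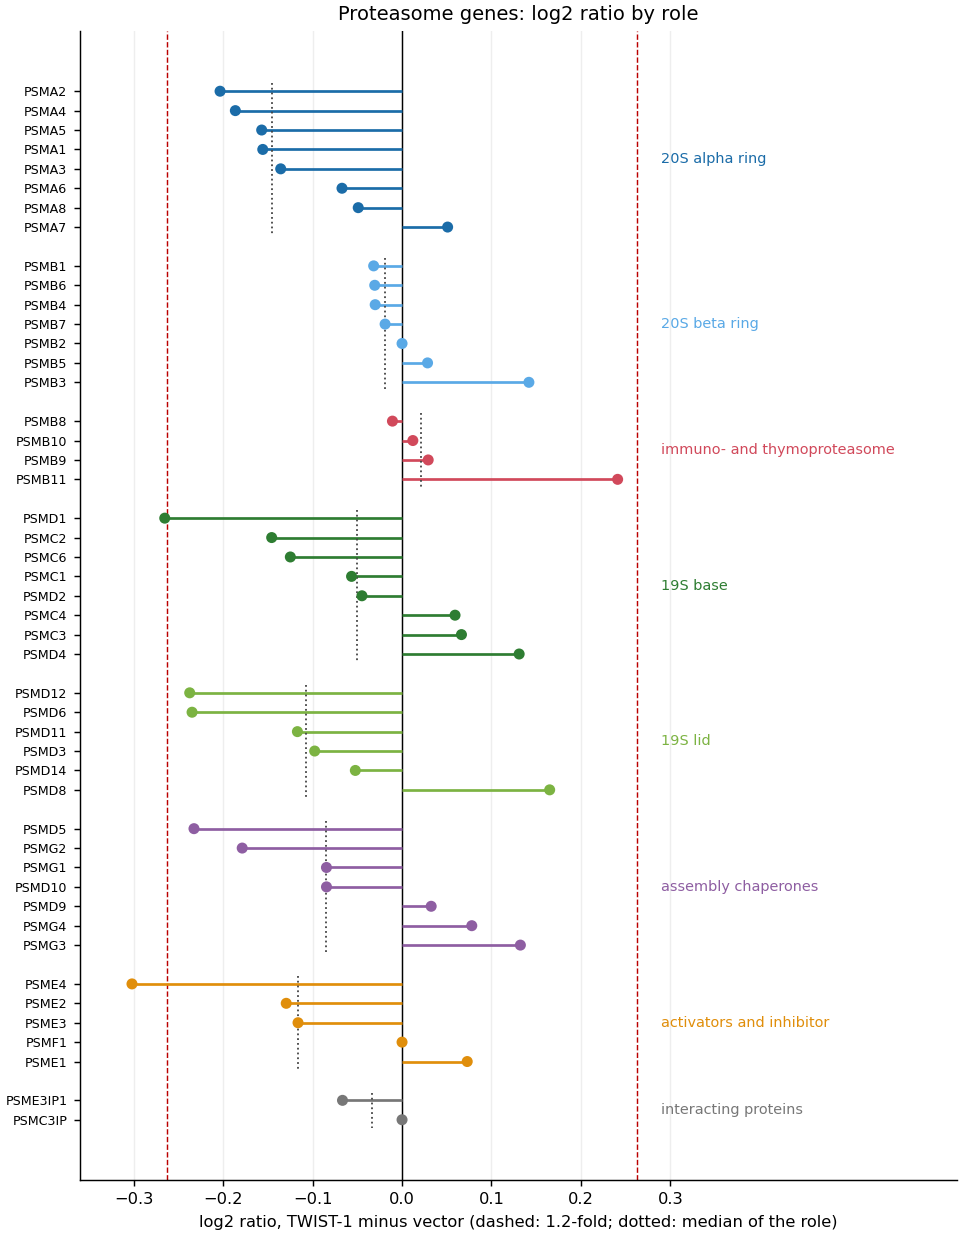
Log2 ratio (TWIST-1 minus vector) of each of the 47 proteasome genes, grouped by role, with dashed lines at 1.2-fold and a dotted line at the median of each role. Of the 8 alpha genes, 7 extend to the left of 0, the beta and immunoproteasome genes other than PSMB3 and PSMB11 lie between -0.032 and 0.029, and only PSMD1 and PSME4 cross the lower dashed line.

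The immunoproteasome genes differed by little between the arrays, apart from the dim PSMB11 of the thymoproteasome. PSMB8, PSMB9 and PSMB10 encode the interferon-inducible catalytic subunits that replace PSMB5, PSMB6 and PSMB7 and favour peptides fit for major histocompatibility complex (MHC) class I. PSMB8 had log2 values of 6.69 on the TWIST-1 array and 6.70 on the vector array, PSMB9 had 6.032 and 6.003, and PSMB10 had 6.06 and 6.05. Their log2 ratios were -0.011, 0.029 and 0.012, and the ratio of each inducible gene minus that of its constitutive counterpart was -0.039 for PSMB8 against PSMB5, 0.060 for PSMB9 against PSMB6 and 0.031 for PSMB10 against PSMB7. No pair differed by as much as the SD between entries of a gene. PSMB8 and PSMB9 lie in the MHC region, for which the array carries entries of several haplotypes, and each gene had 8 entries, of which 5 had distinct values. The log2 ratios of the PSMB8 entries ranged from -0.011 to 0.020, with 6 below 0 and 2 above, and those of PSMB9 from 0.029 to 0.045, all above 0. PSMB11, the beta subunit of the thymoproteasome of cortical thymic epithelium, had the highest ratio of all members at 0.24, from dim log2 values of 4.13 on the TWIST-1 array and 3.89 on the vector array. With an offset of 16 on the linear values its ratio was 0.12. The median of these 4 genes was 0.021, which turned to -0.021 after centring each ratio on the median gene and to -0.0059 after loess normalization.

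Of the 14 genes of the 19S regulatory particle, 10 had a log2 ratio below 0 and the median was -0.077. In the base, the 5 measured ATPase genes had a median of -0.056. PSMC2 was the lowest ATPase, at 8.75 on the TWIST-1 array and 8.89 on the vector array, a log2 ratio of -0.15. PSMC6 and PSMC1 had log2 ratios of -0.12 and -0.056, and PSMC4 and PSMC3 lay above 0 at 0.059 and 0.066. The ATPases form 1 hexameric ring, so the members of this ring lay on both sides of 0. Among the non-ATPase subunits, PSMD2, a scaffold like PSMD1, had a log2 ratio of -0.045. PSMD4, a receptor for ubiquitin chains, was the highest of the base, at 6.78 on the TWIST-1 array and 6.65 on the vector array, a log2 ratio of 0.13.

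In the lid, 5 of 6 genes had a log2 ratio below 0 and the median was -0.11. PSMD12 had log2 values of 6.82 on the TWIST-1 array and 7.05 on the vector array, a log2 ratio of -0.24. PSMD6 had 7.13 on the TWIST-1 array and 7.37 on the vector array, a log2 ratio of -0.23. Both are structural subunits of the lid, short of 1.2-fold as deposited and past it after centring each ratio on the median gene, at -0.28 each. PSMD11 and PSMD3, further scaffold subunits of the lid, had log2 ratios of -0.12 and -0.098. PSMD14, the deubiquitinase that cuts ubiquitin from the substrate, had 7.71 on the TWIST-1 array and 7.76 on the vector array, a log2 ratio of -0.052. PSMD8 stood apart from the other lid genes at 8.40 on the TWIST-1 array and 8.23 on the vector array, a log2 ratio of 0.17.

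Besides PSME4, the other caps of the core had small log2 ratios. PSME1 and PSME2 encode both subunits of PA28, an interferon-inducible cap. PSME1 had log2 values of 8.35 on the TWIST-1 array and 8.28 on the vector array, a log2 ratio of 0.073, and PSME2 had 7.06 and 7.19, a log2 ratio of -0.13. The partners in this cap thus had ratios of opposite sign. PSME3, the nuclear PA28 subunit, had a log2 ratio of -0.12, and PSMF1, which encodes the inhibitor PI31, had equal values on both arrays. The median of these 5 genes was -0.12.

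Assembly factors had ratios on both sides of 0, with 4 of 7 below it and a median of -0.084. Among the chaperones of the 19S base, PSMD5 had log2 values of 7.23 on the TWIST-1 array and 7.46 on the vector array, a log2 ratio of -0.23, which passed 1.2-fold at -0.27 after centring each ratio on the median gene. PSMD10, also known as gankyrin, had a log2 ratio of -0.084 and PSMD9 had 0.033. Among the PAC chaperones, which build the alpha ring, PSMG2 had 7.97 on the TWIST-1 array and 8.15 on the vector array, a log2 ratio of -0.18. Its binding partner PSMG1 had a log2 ratio of -0.085. PSMG3 and PSMG4, which form the other PAC dimer, had log2 ratios of 0.13 and 0.078. The transcripts of PSMG1 and PSMG2 thus lay below 0 and those of PSMG3 and PSMG4 above it. The PSMG1 ratio was -0.044 after loess normalization and -0.016 after repeated quantile normalization. PSMG4 was dim, at 4.41 on the TWIST-1 array and 4.34 on the vector array, and its ratio was 0.0079 after loess normalization. The interacting protein genes PSMC3IP and PSME3IP1 had log2 ratios of 0 and -0.067.

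The scaling moved the medians, and after loess or repeated quantile normalization the assembly chaperones changed places with the 19S particle, and the beta ring with the immunoproteasome, in the order of medians. The median of all members was -0.091 after centring each ratio on the median gene, -0.033 after loess normalization and -0.016 after repeated quantile normalization. The alpha ring kept the lowest median under each of these scalings, at -0.19, -0.14 and -0.12. The beta ring turned above 0 at 0.0010 after loess normalization and at 0.018 after repeated quantile normalization.

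**Figure D4:**
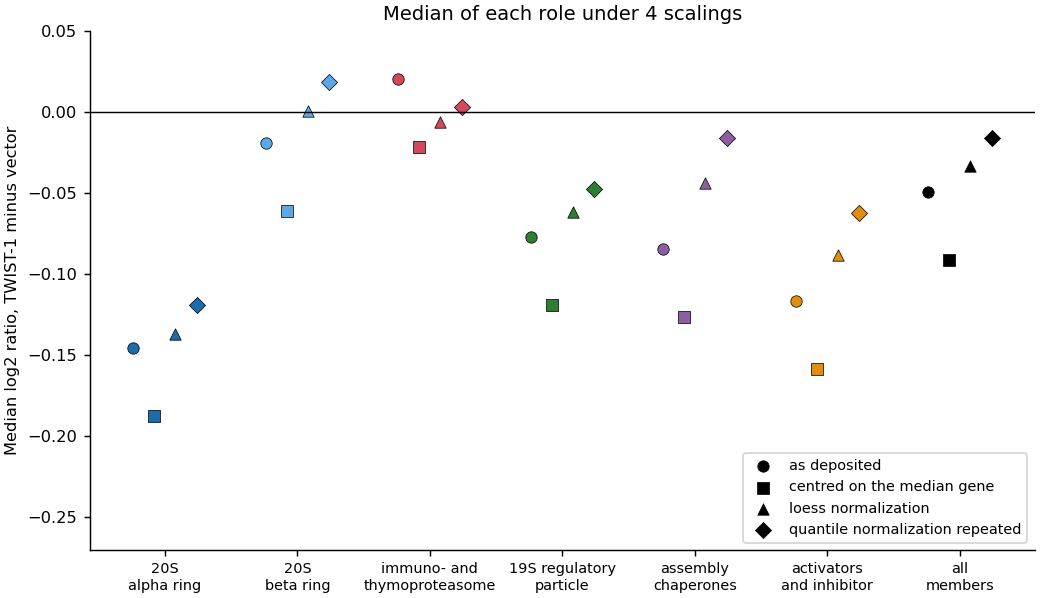
Median log2 ratio (TWIST-1 minus vector) of the genes of each role and of all 47 members under the deposited scaling and 3 others, shown by marker shape. The alpha ring is lowest under each scaling, from -0.19 to -0.12, and the beta ring and the immuno- and thymoproteasome genes lie on both sides of 0.

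Genes that work with the proteasome but have other symbols were described in 4 lists. Of the 45 measured, 1 was at least 1.2-fold lower and none higher, beside 2.85% and 2.71% of all genes. A log2 ratio below 0 was found for 33 of the 45 (73.3%). This share was 34.8% over all genes and 56.3% over the genes of like level to the members, from 6.59 to 7.74. The list genes were not matched by level, and their mean log2 values ran from 3.56 (ERAP2) to 11.6 (CALR). The part of level in their share below 0 was not tested. Of 14 proteasome partners, 11 had a log2 ratio below 0 and the median was -0.082. The lowest were the genes of both deubiquitinases that dock on the particle, USP14, at 7.50 on the TWIST-1 array and 7.74 on the vector array (log2 ratio -0.24), and UCHL5, at 6.21 and 6.44 on the same arrays (log2 ratio -0.22). ADRM1, the ubiquitin receptor that recruits UCHL5, was the highest at 0.098. POMP, which matures the core, and SEM1, a small lid subunit, had equal values on both arrays, at 7.20 and 3.98. SEM1 was thus dim, under the median level of all genes.

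Of 11 measured genes of ubiquitin and substrate delivery, 9 had a log2 ratio below 0 and the median was -0.095. UBA6, an activating enzyme for ubiquitin and for the ubiquitin-like protein FAT10, had log2 values of 6.23 on the TWIST-1 array and 6.61 on the vector array. Its log2 ratio of -0.38 was the only one in these lists past 1.2-fold. UBA1, the main activating enzyme of ubiquitin, had a log2 ratio of -0.021. UBQLN1, a shuttle that carries substrates to the proteasome, had 8.34 on the TWIST-1 array and 8.60 on the vector array, a log2 ratio of -0.26 just short of the threshold. The ubiquitin gene UBB and the shuttle gene UBQLN4 were the highest, at 0.052 and 0.077.

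Of 6 measured genes of the NFE2L1 axis, 3 lay on each side of 0, with a median of -0.028. NFE2L1 itself had log2 values of 7.36 on the TWIST-1 array and 7.31 on the vector array, a log2 ratio of 0.053. NGLY1, the glycanase that NFE2L1 needs for activation, was the lowest at -0.25, and NFE2L2 had -0.16. NFE2L3 and the small MAF gene MAFF, whose product pairs with these factors, were the highest at 0.13 and 0.15. Of 14 measured genes of MHC class I presentation, 10 were below 0 and none passed 1.2-fold, beside 2.85% of all genes lower and 2.71% higher. B2M, the light chain of MHC class I, had a log2 ratio of -0.19 and the peptide-trimming gene ERAP1 -0.18. TAP2, a subunit of the peptide transporter, and NLRC5, an activator of MHC class I genes, were the highest at 0.10 and 0.082. The list's median of -0.052 was 0.0023 after repeated quantile normalization.

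**Figure D5:**
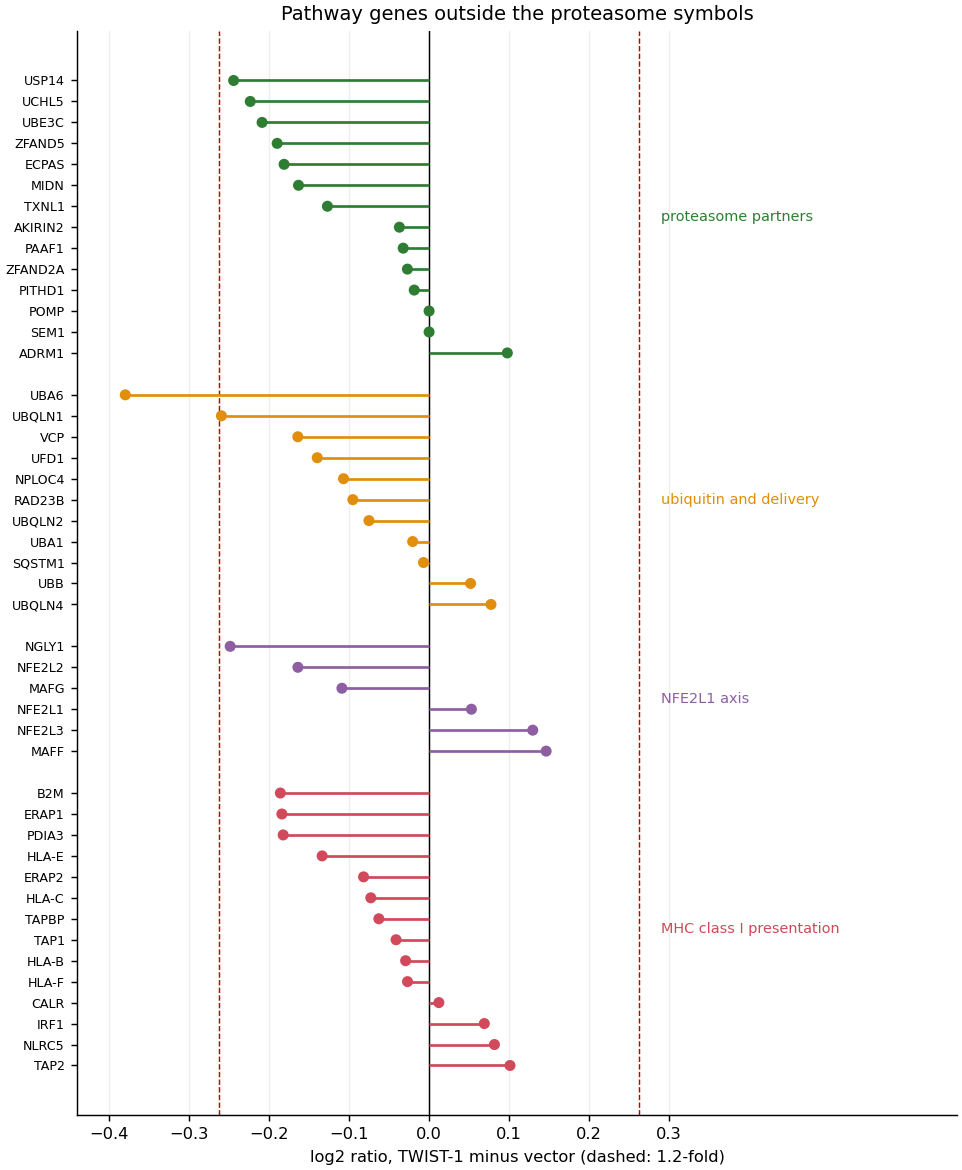
Log2 ratio (TWIST-1 minus vector) of the 45 measured genes in 4 lists of genes that work with the proteasome, with dashed lines at 1.2-fold. UBA6 at -0.38 is the only gene past a dashed line, and 33 of the 45 genes (73.3%) extend to the left of 0. Of all genes, 34.8% were below 0, and of the genes with a mean log2 value from 6.59 to 7.74, 56.3%. The list genes reach beyond this range, from 3.56 (ERAP2) to 11.6 (CALR).

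Array entries left out by their symbols were close to 0 as well. The antisense transcripts PSMA3-AS1, PSMD5-AS1, PSMD6-AS2 and PSMG3-AS1 had log2 ratios of -0.090, 0.081, -0.032 and 0.12, and the pseudogene PSME2P2, which can share probes with PSME2, had -0.041.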

How the data were processed

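RNA from TWIST-1-transduced and vector-transduced U937 cells was measured on 1 array each. The authors deposited log2 values per transcript cluster, and the paper names quantile normalization. The medians over all entries were 3.97 on the TWIST-1 array and 3.90 on the vector array, so the deposited values do not share 1 distribution. The reason was not tested. Affymetrix Expression Console is the tool in the submitters' processing notes; its version and how probes were summarised and background-corrected are not given in the sources used. Of 70523 table entries, 25324 were in the probe annotation, 23781 of them with 1 symbol, 1543 with several (not used) and 45199 entries not listed. The gene identifiers of 21497 entries were found in RefSeq of GRCh38.p14, and these entries took their symbols from it. The brightest entry stood for each gene.

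With 1 array per condition, genes were described by both log2 values, the log2 ratio and counts at 1.2-fold, and no test was run. Precision is limited by the number of arrays. The genes named were those past 1.2-fold, the catalytic pairs, and the highest and lowest of each role and list, with further members given to account for all. The members, lists and motifs were chosen with earlier results of these data known. Alternatives were median centring of the ratios, loess (span 0.7, 3 iterations), repeated quantile normalization, the mean of a gene's entries, genes at or over the median level, an offset of 16 and thresholds of 1.1-fold and 1.5-fold. Scripts were tested on simulated data. R 4.3.3 with limma 3.58.1 and Python 3.11.15 with pandas 2.3.3 and numpy 2.4.6 were used.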

Additional observations from a re-analysis of the deposited data

How the results depend on the processing

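The number of members at least 1.2-fold lower, 2 as deposited, was 5 after median centring (PSMD5, PSMD6 and PSMD12 besides PSMD1 and PSME4, beside 4.83% of all genes), 1 after repeated quantile normalization (PSMD1, beside 3.25%), 1 with the offset (PSME4, beside 1.22%), 11 at 1.1-fold (beside 11.8%) and 0 at 1.5-fold (beside 0.0979%). It stayed at 2 after loess normalization (beside 3.65%), with the mean of a gene's entries (beside 2.81%), with dim genes left out (beside 4.23%) and without PSMC3IP and PSME3IP1, a choice made after seeing the data. The number higher was 0 except at 1.1-fold, where it was 3. The thresholds set their own counts, and centring subtracts 0.042 from every gene. For the other settings the cause was not tested.

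In the lists, the genes at least 1.2-fold lower, 0 in the NFE2L1 axis as deposited, were 1 after centring, after loess normalization and after repeated quantile normalization (NGLY1, from -0.29 to -0.28). Under these settings, in that order, 4.83%, 3.65% and 3.25% of all genes were at least 1.2-fold lower. After centring there were 2 among proteasome partners (0 as deposited) and 2 in ubiquitin and delivery (1 as deposited). Of the medians of members, roles and lists, 3 changed sign. The immunoproteasome median (0.021) was -0.021 after centring and -0.0059 after loess normalization, the beta ring median (-0.019) was 0.0010 after loess and 0.018 after repeated quantile normalization, and the median of MHC class I presentation (-0.052) was 0.0023 after repeated quantile normalization. The others kept their sign under each alternative run. No paired analysis was possible because each condition had 1 array.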
